A study of Mus musculus with 12 samples.

Results

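Collagens and stromal matrix genes were followed in the colon epithelium of wild type and POR-null mice fed a control diet or a diet with quercetin. The set was defined by name, with earlier results of these data known, so shares over all genes set beside it are descriptions. It took every collagen alpha chain gene with a probe set of a single annotated symbol. It also took dermatopontin (Dpt), periostin (Postn), decorin (Dcn), lumican (Lum), biglycan (Bgn), fibronectin (Fn1), Sparc, matrix Gla protein (Mgp), fibulin-1 (Fbln1), fibrillin-1 (Fbn1), elastin (Eln), thrombospondin-1 (Thbs1), Timp2 and Timp3. It held 49 of the 12393 genes named on the array, 36 of them collagens and 13 of the 14 other genes, as Fbn1 was not analysed here. For each gene the probe set of highest mean signal was used.

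The animals were male C57BL/6 mice aged 6 to 8 weeks. After 14 days of adaptation to a soya-free RM3 powder they received the same powder for 24 hours, plain or with quercetin, a plant flavonol, at 6200 ppm (7 mg per mouse). Wild type (WT) and POR-null mice on each diet gave 4 groups, each of 3 Affymetrix 430A arrays, and every array carried RNA pooled from 3 mice, so that the spread between arrays is one between pools. POR is the cytochrome P450 reductase, and the null line is known to lack it in hepatocytes, so that its colon epithelium is expected to retain the enzyme; the deleted gene itself was not analysed here. The tissue was scraped from the lumen, and its yield of underlying connective tissue and muscle was not fixed by the protocol.

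Collagens are triple-helical proteins built from alpha chains. Fibrillar types I, III and V form the fibres of the submucosa and lamina propria, type IV forms the sheet on which epithelium, vessels and muscle rest, and type VI forms beaded filaments beside it. Decorin, lumican and biglycan coat fibrils and set their diameter, fibronectin and periostin tie cells to the fibres, and the TIMP proteins inhibit the metalloproteinases that degrade them. In the gut these proteins are made mainly by fibroblasts, smooth muscle and vessel cells rather than by epithelium.

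Values are the deposited signals, taken as log2, and differences are given as log2 units with the standard error (SE) of the limma fit. Array medians lay between 5.9 and 5.98. The labelled tissue was borne out by its markers: 10 epithelial genes averaged 11.21 to 11.4 on the 12 arrays. By limma 0 of 22626 probe sets (0.0%) passed an adjusted p of 0.05 in each of quercetin in wild type, quercetin in POR-null, genotype on control diet, genotype on quercetin diet and their interaction, so 0 of the 49 genes passed in any of them. Numbers of genes at an unadjusted p under 0.05, and of genes whose groups did not overlap, are therefore given beside the share over all 12393 genes. In tissue pools fewer cells of a type and less RNA per cell cannot be told apart.

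RefSeq promoter windows were found for 34 of the 49 genes. The 250 bases before the start are shown for Col3a1 and Col1a2, whose signals had a wide range over the arrays, and for Dpt and Timp3, which had the smallest p after quercetin in wild type mice. All lie on the plus strand of GRCm38.p6: Col3a1 at chr1:45311288-45311537, Col1a2 at chr6:4505368-4505617, Dpt at chr1:164796413-164796662 and Timp3 at chr10:86300162-86300411. The Timp3 window lies within the span of Syn3 and that of Dpt within the span of Gm32569. Capitals mark matches, searched on both strands. The TATA box was searched as TATAAA. The letters of the CCAAT box are those of its name. The GC box was searched as GGGCGG.
Col3a1: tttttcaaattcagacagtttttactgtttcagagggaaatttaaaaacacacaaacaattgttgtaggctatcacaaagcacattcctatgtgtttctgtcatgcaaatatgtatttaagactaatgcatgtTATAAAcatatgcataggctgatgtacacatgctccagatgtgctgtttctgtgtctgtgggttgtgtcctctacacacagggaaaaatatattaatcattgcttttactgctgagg
Col1a2: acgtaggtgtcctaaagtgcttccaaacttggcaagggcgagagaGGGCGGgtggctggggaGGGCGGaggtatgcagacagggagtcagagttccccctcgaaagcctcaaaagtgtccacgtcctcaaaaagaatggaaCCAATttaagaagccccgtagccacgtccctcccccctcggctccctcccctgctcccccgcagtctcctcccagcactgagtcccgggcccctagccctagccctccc
Dpt: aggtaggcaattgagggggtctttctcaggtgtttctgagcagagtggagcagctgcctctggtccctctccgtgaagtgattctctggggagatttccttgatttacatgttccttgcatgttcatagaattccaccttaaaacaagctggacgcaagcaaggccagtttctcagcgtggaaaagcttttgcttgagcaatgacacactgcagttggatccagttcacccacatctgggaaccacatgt
Timp3: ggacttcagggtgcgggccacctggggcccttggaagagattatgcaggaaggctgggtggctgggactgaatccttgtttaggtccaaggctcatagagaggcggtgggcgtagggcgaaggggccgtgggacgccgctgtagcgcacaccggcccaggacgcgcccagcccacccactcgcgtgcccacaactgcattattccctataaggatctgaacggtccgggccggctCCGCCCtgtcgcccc

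The type III collagen window had TATAAA from -117 to -112 relative to the start and a GC content of 35.2%. That of Col1a2 had CCAAT from -109 to -105 and GGGCGG at -205 to -200 and -188 to -183, with a GC content of 62.0%. Timp3 had the GC box on the opposite strand, from -15 to -10, and Dpt had none of these letters. Over the 39 windows of the 34 genes, TATAAA stood in 6 (15.4%, against 12.4% of all 32851 windows), CCAAT in 13 (33.3% against 33.8%) and GGGCGG in 20 (51.3% against 32.7%). The CArG box, known as the element bound by serum response factor in muscle genes, stood in 0 of the 39 windows and in 1.47% of all. A match describes the letters only.

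The 49 genes were divided here at a range of 1 log2 unit over the 12 arrays, and those above it called variable. The cut was applied to the probe set used, and ranges ran on across it (Fbln1 1.02, Col6a2 0.93). In another probe set the range was 1.58 for Col1a1, 1.28 for Col5a1, 1.21 for Col6a2 and 1.19 for Timp2. It was 0.7 for Fn1 and 0.51 for Col5a2 in another probe set. The range over the 12 arrays was above 1 log2 unit for 17 genes (34.7%), against 5.59% of all genes. These were Col3a1, Col1a2, Col5a2, Col4a1, Col4a2, Col6a1, Col6a3, all 3 proteoglycans, Sparc, Fn1, Dpt, Postn, Mgp, Fbln1 and Timp3. None of the 9 fibril-associated collagens and none of the 6 network, membrane and other collagens was among them, with class medians of 0.29 and 0.35 for the range. Signal lay at or above the median of all values, 5.94, for 30 genes. It lay below the lower quartile on all 12 arrays for 7 (Col4a4, Col9a2, Col13a1, Col17a1, Col19a1, Col22a1 and Col26a1), so that little can be measured there. Signals of different probe sets depend on the probes and are not ranked here as amounts of RNA.

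**Figure D1:**
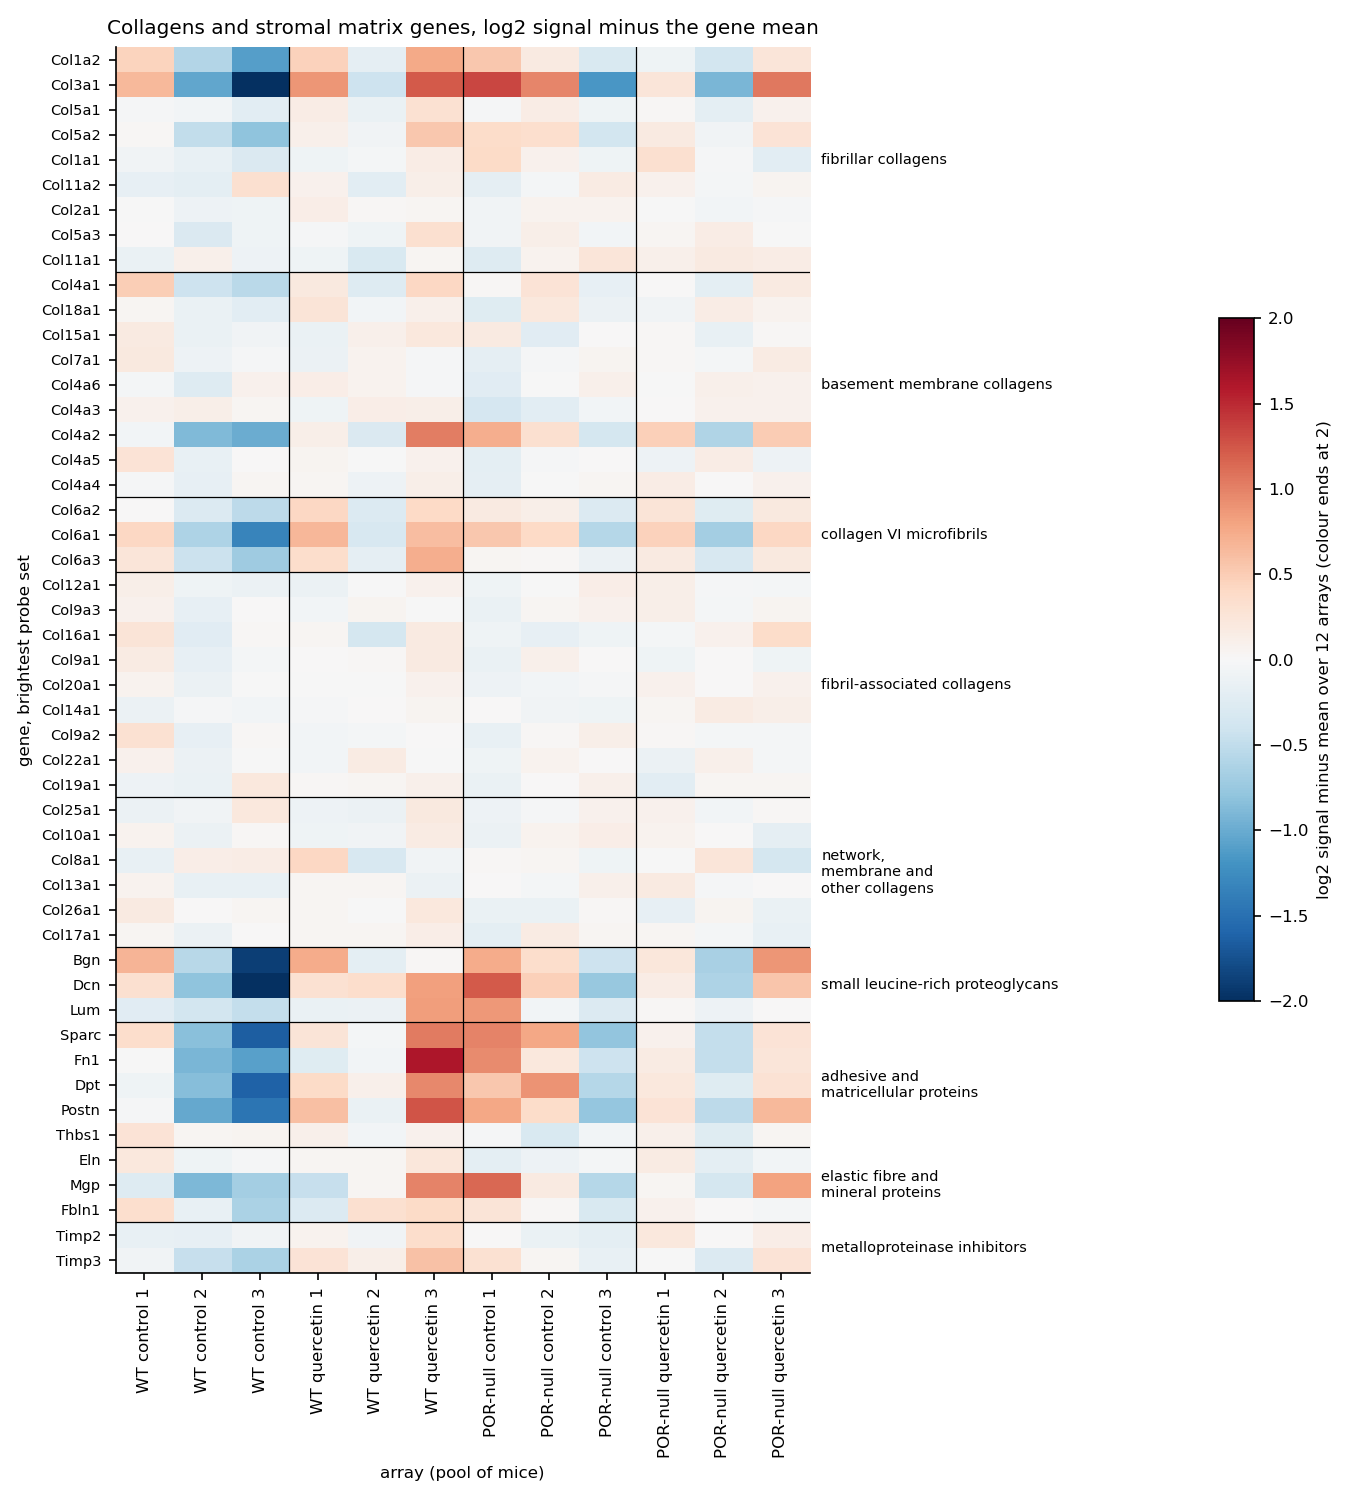
Log2 signal of each of the 49 genes (rows, by class) on each of the 12 arrays (columns, by group), minus the gene's mean over the arrays; colours end at 2 log2 units on either side. Wild type control 3 is the lowest array in 16 of the 17 genes with a range above 1, and no fibril-associated collagen has a range above 0.72.

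Fibrillar collagens held the widest range of the set. Col3a1, the chain of type III collagen, had signals of 7.61, 5.92 and 4.11 in wild type control pools 1 to 3, 7.84, 6.54 and 8.19 in wild type quercetin pools, 8.30, 7.93 and 5.80 in POR-null control pools and 7.20, 6.04 and 8.01 in POR-null quercetin pools. It spanned 4.19 log2 units, an 18.3-fold range, and all 4 groups overlapped. This gene was singled out for its range after its values were seen. Col1a2, a chain of type I collagen, measured 7.84, 6.81 and 6.30 in wild type control, 7.86, 7.21 and 8.15 in wild type quercetin, 7.94, 7.57 and 7.09 in POR-null control and 7.31, 7.03 and 7.63 in POR-null quercetin pools. The lowest pools of Col1a2 were controls 3 and 2 of the wild type. Col5a2, a chain of type V collagen that nucleates fibrils, gave 6.22, 5.71 and 5.40, then 6.31, 6.13 and 6.74, then 6.57, 6.54 and 5.84, then 6.39, 6.13 and 6.47 in the same order of groups. Its first wild type control pool lay within the quercetin pools and the other two below them. Col11a1, a minor fibrillar chain best known from cartilage, had values of 4.48, 4.71 and 4.52 in wild type control, 4.53, 4.31 and 4.66 in wild type quercetin, 4.35, 4.68 and 4.85 in POR-null control and 4.72, 4.80 and 4.77 in POR-null quercetin pools. It was below the lower quartile on 7 arrays and its range was 0.54. The other fibrillar genes, Col1a1, Col2a1, Col5a1, Col5a3 and Col11a2, had ranges from 0.24 to 0.68 in the probe sets used.

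Basement membrane collagens had ranges on both sides of the cut. Col4a1, the ubiquitous type IV chain, gave 7.89, 6.99 and 6.86 in wild type control, 7.60, 7.15 and 7.81 in wild type quercetin, 7.43, 7.67 and 7.24 in POR-null control and 7.41, 7.21 and 7.58 in POR-null quercetin pools. Its partner Col4a2 gave 5.50, 4.66 and 4.55, then 5.66, 5.26 and 6.57, then 6.28, 5.87 and 5.19, then 6.03, 4.94 and 6.06. In both genes wild type controls 2 and 3 were the lowest arrays of the 12. Col4a3, a chain of the type IV network known from kidney and lung, behaved otherwise, with 5.66, 5.69 and 5.61 in wild type control, 5.49, 5.70 and 5.69 in wild type quercetin, 5.24, 5.35 and 5.51 in POR-null control and 5.58, 5.65 and 5.65 in POR-null quercetin pools. Its range was 0.46, and the 3 POR-null control pools lay below the wild type controls and below the POR-null quercetin pools. Col4a4, Col4a5, Col4a6, Col7a1 (anchoring fibrils), Col15a1 and Col18a1 (the source of endostatin) had ranges from 0.33 to 0.5.

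The 3 collagen VI chains had ranges from 0.93 to 1.99. Col6a1 measured 7.95, 6.91 and 6.21 in wild type control, 8.20, 7.21 and 8.15 in wild type quercetin, 8.08, 7.94 and 6.97 in POR-null control and 8.00, 6.85 and 7.95 in POR-null quercetin pools. Col6a2 measured 7.98, 7.71 and 7.46, then 8.39, 7.71 and 8.38, then 8.15, 8.10 and 7.71, then 8.23, 7.73 and 8.18. One pool of each group stood low in both genes: the third of both control groups and the second of both quercetin groups. Col6a3, the longest chain of type VI, had a range of 1.44 and the highest correlation with the mean of the standardised values of the 49 genes (r = 0.934 over the 12 arrays, a mean that includes it).

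Fibril-associated and other collagens had ranges from 0.21 to 0.77. The widest were those of Col8a1 (0.77) and Col16a1 (0.72). Col8a1 also had the lowest correlation of the set with the mean of the standardised values (r = -0.282). Col12a1, which binds the surface of type I fibrils, ran from 7.25, 7.06 and 7.03 in wild type control through 7.03, 7.14 and 7.22 in wild type quercetin and 7.06, 7.14 and 7.27 in POR-null control to 7.26, 7.12 and 7.10 in POR-null quercetin pools. Col14a1, a related chain, had 5.28, 5.37 and 5.35, then 5.37, 5.41 and 5.45, then 5.41, 5.33 and 5.31, then 5.44, 5.57 and 5.52. In Col14a1 all POR-null quercetin pools were above all POR-null control pools, by little. Col16a1, found near fibrils and fibrillin, had 6.98, 6.51 and 6.75, then 6.77, 6.37 and 6.91, then 6.65, 6.56 and 6.65, then 6.69, 6.82 and 7.09 in the same order. Col20a1 had 6.58, 6.39 and 6.50, then 6.50, 6.51 and 6.59, then 6.41, 6.45 and 6.49, then 6.60, 6.52 and 6.59. Its 12 values lay within 0.21, the narrowest range of the set. Col25a1, a transmembrane collagen best known from neurons, had 7.38, 7.42 and 7.70, then 7.39, 7.37 and 7.69, then 7.39, 7.46 and 7.57, then 7.57, 7.43 and 7.52. Col26a1 ran from 3.81 to 4.03 over the 6 wild type pools, then had 3.68, 3.68 and 3.83 in POR-null control and 3.65, 3.87 and 3.68 in POR-null quercetin pools. Col17a1, the hemidesmosomal collagen of skin, had 3.48, 3.32 and 3.45, then 3.49, 3.48 and 3.58, then 3.25, 3.61 and 3.49, then 3.48, 3.41 and 3.29. Col26a1 and Col17a1 lay below the lower quartile of signal on every array, as did Col9a2, Col13a1, Col19a1 and Col22a1. A narrow range says little in these genes.

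Among the proteoglycans, Dcn, which binds type I fibrils and TGF-beta, measured 7.62, 6.50 and 5.28 in wild type control, 7.61, 7.65 and 8.13 in wild type quercetin, 8.53, 7.78 and 6.55 in POR-null control and 7.45, 6.68 and 7.86 in POR-null quercetin pools. The first wild type control pool equalled the lowest quercetin pool to within 0.01, and the third lay far below. Bgn, its relative on the X chromosome, measured 8.09, 6.85 and 5.53, then 8.16, 7.22 and 7.44, then 8.16, 7.77 and 7.00, then 7.64, 6.77 and 8.30. All of its groups overlapped. Lum, a keratan sulphate proteoglycan, was below the lower quartile on 10 of the 12 arrays, its highest values being 5.27 in wild type quercetin pool 3 and 5.30 in POR-null control pool 1.

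Of the 5 adhesive and matricellular genes 4 had a wide range, and the order of their pools differed in places. Sparc, a collagen-binding protein that aids fibril assembly, measured 8.96, 7.78 and 6.96 in wild type control, 8.87, 8.58 and 9.65 in wild type quercetin, 9.61, 9.39 and 7.82 in POR-null control and 8.69, 8.14 and 8.89 in POR-null quercetin pools. Fn1, the fibronectin gene, measured 7.59, 6.69 and 6.51, then 7.35, 7.55 and 9.22, then 8.54, 7.81 and 7.19, then 7.77, 7.12 and 7.84. The third wild type quercetin pool stood far above the others of its group. Postn, which links collagen and fibronectin, measured 6.54, 5.53 and 5.10, then 7.16, 6.42 and 7.82, then 7.33, 6.92 and 5.79, then 6.83, 6.03 and 7.20. Dpt, which speeds collagen fibril formation, measured 6.49, 5.73 and 4.96 in wild type control, 6.96, 6.67 and 7.53 in wild type quercetin, 7.12, 7.47 and 6.00 in POR-null control and 6.79, 6.33 and 6.86 in POR-null quercetin pools. All wild type quercetin pools were above all wild type control pools in Dpt, whereas 1 pool crossed over in Postn. Thbs1, an activator of latent TGF-beta, had group means of 5.23, 5.14, 4.97 and 5.07 and a range of 0.59.

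Eln, the elastin of elastic fibres, measured 7.24, 6.94 and 7.00 in wild type control, 7.06, 7.07 and 7.25 in wild type quercetin, 6.83, 6.92 and 6.99 in POR-null control and 7.18, 6.83 and 6.97 in POR-null quercetin pools. Its range was 0.42. Mgp, an inhibitor of calcification, varied widely (range 2.05, group means 5.97, 6.77, 6.83 and 6.74), and Fbln1, an elastic fibre and basement membrane protein, had a range of 1.02. Of the protease inhibitors, Timp3, the one that binds to the matrix, measured 5.97, 5.58 and 5.41 in wild type control, 6.32, 6.16 and 6.62 in wild type quercetin, 6.34, 6.08 and 5.89 in POR-null control and 6.03, 5.76 and 6.32 in POR-null quercetin pools. Its wild type quercetin pools were all above the wild type control pools. Timp2, which is soluble and also takes part in the activation of MMP2, measured 7.54, 7.52 and 7.62, then 7.76, 7.62 and 8.03, then 7.69, 7.55 and 7.49, then 7.90, 7.69 and 7.82. In Timp2 the lowest quercetin pool had the same value as the highest control pool in each genotype.

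**Figure D2:**
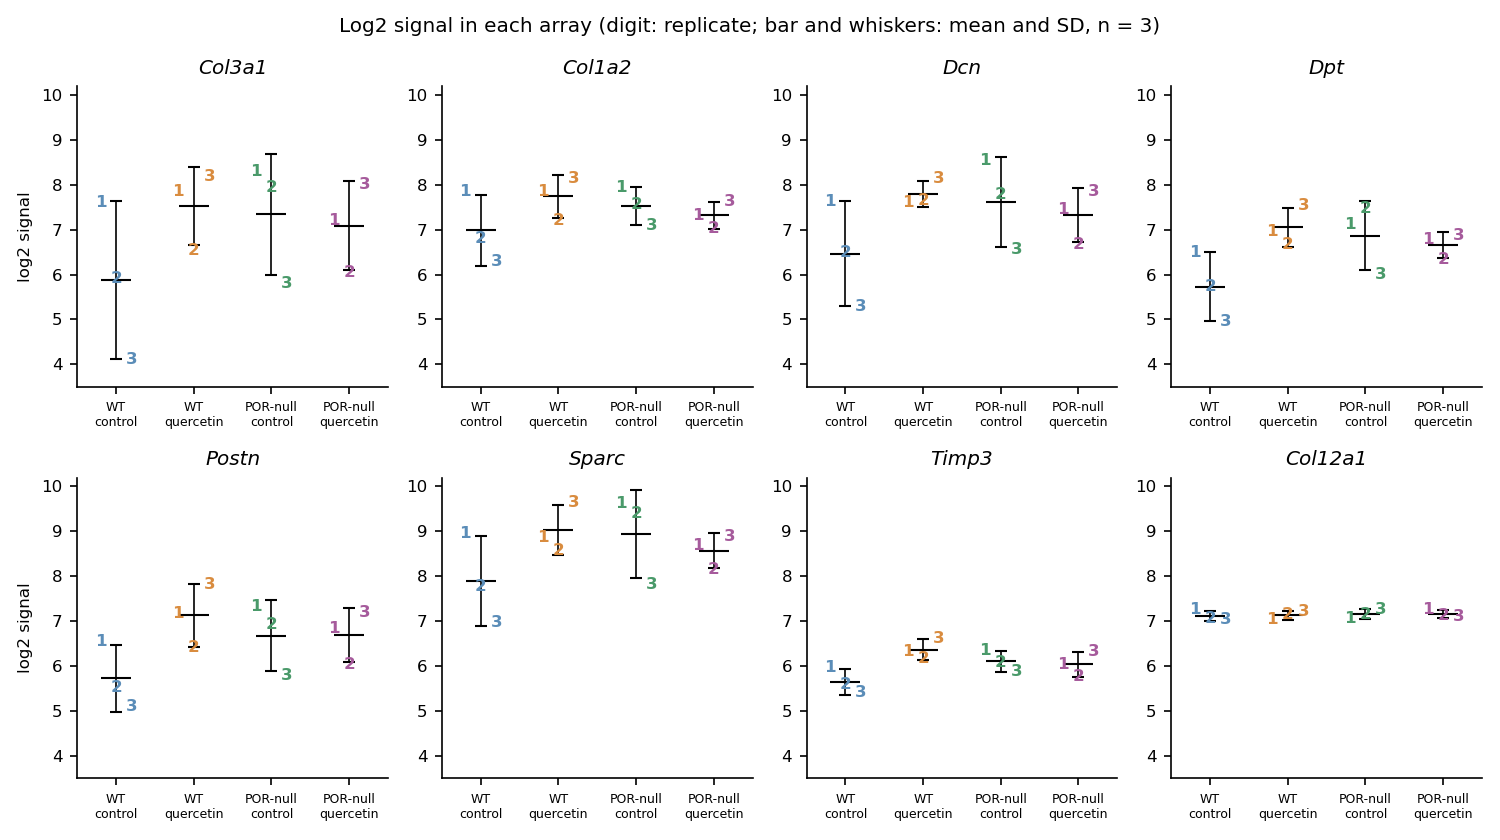
Log2 signal (vertical axis) of 8 genes in the 4 groups; digits are the 3 pools of a group, the bar and whiskers the mean and SD. In Dpt and Timp3 the wild type groups do not overlap, in Col3a1 wild type control runs from 4.11 to 7.61, and Col12a1 is level.

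Within every group one pool was highest and one lowest in most of the 17 variable genes. Wild type control pool 1 was the highest of its group in 17 of 17 and pool 3 the lowest in 16. In wild type quercetin pool 3 was highest in 15 and pool 2 lowest in 12. In POR-null control pool 1 was highest in 15 and pool 3 lowest in 17, and in POR-null quercetin pool 3 was highest in 14 and pool 2 lowest in 16. These 17 genes were chosen by their range over the same arrays, so the counts describe them and test nothing.

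Quercetin in wild type mice went with higher signal of matrix genes, without any passing the adjusted threshold. Of the 49 genes 40 were higher and 8 lower, with a median difference of 0.13, whereas 50.1% of all genes were higher with a median of 0.00. The largest differences were those of Col3a1 (1.64, SE 0.83), Postn (1.41, SE 0.46), Dcn (1.33, SE 0.54), Dpt (1.33, SE 0.39), Sparc (1.13, SE 0.50) and Fn1 (1.11, SE 0.46), between 2.16-fold and 3.12-fold. The 5 genes of smallest p were, in order, Timp3 (0.71, SE 0.18, adjusted p = 0.948 by limma), Dpt, Postn, Col5a2 (0.62, SE 0.23) and Dcn (adjusted p = 0.957). All 3 wild type quercetin pools stood above all controls in the first and second of these, but not in the other three.

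At an unadjusted p under 0.05 there were 12 genes higher, against 3.21% of all genes, and 0 lower, against 1.86%. The 12 were those 5, Col6a3 (0.60), Fn1, Col4a2 (0.93), Sparc, Timp2 (0.24), Col1a2 (0.76) and Col6a2 (0.44). The groups did not overlap in 4 genes that were higher (Timp3, Dpt, Lum at 0.55 and Col2a1 at 0.13), against 5.64% of all genes, and in 0 that were lower, against 3.64%. The count of genes without overlap is thus near the background, and the count at an unadjusted p is above it. By class the medians were 1.13 for the 5 adhesive and matricellular genes, 0.78 for the 3 proteoglycans, 0.60 for the 3 collagen VI chains, 0.20 for the 9 fibrillar collagens, 0.07 for the 9 basement membrane collagens, 0.04 for the 9 fibril-associated and 0.01 for the 6 other collagens. The count of 12 rested on few pools. It was 2 without wild type quercetin pool 3, 3 without wild type control pool 2 and 3 without wild type control pool 3, and it was 6 with robust moderation of the variance. Dcn differed by 0.74 without wild type control pool 3.

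In POR-null mice on quercetin the matrix genes had no common direction: 25 were higher and 24 lower, with a median of 0.00 (0.01 over all genes) and differences from -0.37 (Sparc) to 0.26 (Col4a3). The genes that led in wild type mice measured -0.26 for Col3a1 (SE 0.83), 0.01 for Postn (SE 0.46), -0.29 for Dcn (SE 0.54), -0.20 for Dpt (SE 0.39), -0.27 for Fn1 (SE 0.46) and -0.07 for Timp3 (SE 0.18). Here the 5 genes of smallest p were Col4a3 (0.26, SE 0.10), Timp2 (0.23, SE 0.11), Col14a1 (0.16, SE 0.08), Col16a1 (0.25, SE 0.15) and Col20a1 (0.12, SE 0.08), each with an adjusted p of 1.0 by limma. One gene, Col4a3, was higher at an unadjusted p under 0.05, against 1.08% of all genes, and 0 were lower, against 1.48%. Groups did not overlap in 4 higher genes (Col4a3, Col14a1, Col16a1 and Col20a1) and in 0 lower ones, where 3.39% of all genes did so in either direction. The count of 1 became 2 without wild type quercetin pool 2 or 3 or POR-null quercetin pool 2. Col16a1 differed by 0.135 without POR-null quercetin pool 3, and the median ran from -0.032 without POR-null quercetin pool 1 to 0.072 without POR-null quercetin pool 2.

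**Figure D3:**
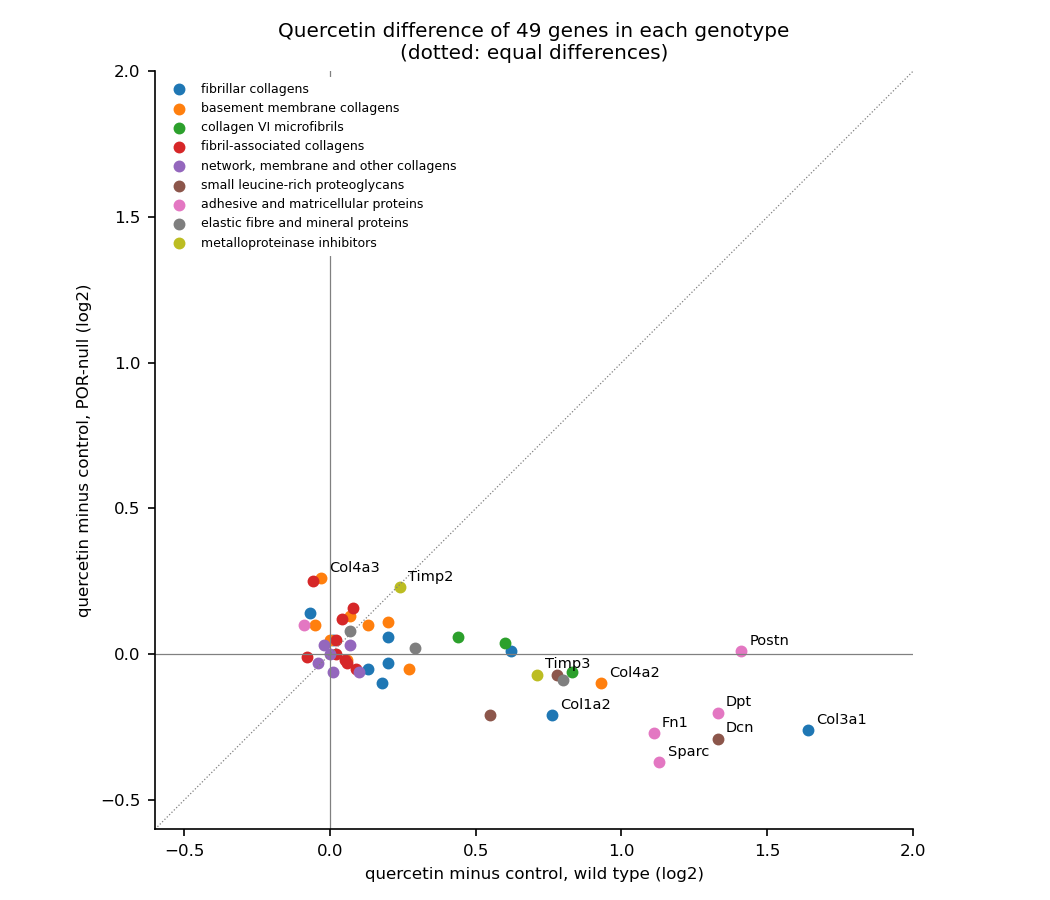
Difference between quercetin and control diet in log2 units for each of the 49 genes, in wild type mice (horizontal) and POR-null mice (vertical), which share no arrays; colours are classes and the dotted line marks equal differences. Col3a1, Postn, Dcn, Dpt, Sparc and Fn1 lie above 1 in wild type and between -0.37 and 0.01 in POR-null mice.

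The test of the difference between these responses, the interaction, was negative for 33 genes and positive for 15, with a median of -0.10 against 0.00 over all genes. It was -1.90 for Col3a1 (SE 1.17), -1.62 for Dcn (SE 0.77), -1.53 for Dpt (SE 0.56), -1.50 for Sparc (SE 0.71), -1.40 for Postn (SE 0.66) and -1.38 for Fn1 (SE 0.65). Timp3 had -0.78 (SE 0.26), and Col4a3 had 0.29 (SE 0.14). Timp3 and Dpt were the 2 genes at an unadjusted p under 0.05 in the negative direction, against 2.87% of all genes, and 0 were positive, against 1.77%. The smallest adjusted p by limma in the set was 0.998, so that no gene was shown to respond differently in the genotypes. The count of 2 was 14 without wild type control pool 1, 13 without POR-null control pool 3, 11 without wild type quercetin pool 2, and 4 without wild type quercetin pool 1 or POR-null quercetin pool 3. With array weights it was 13. The Fn1 interaction was -0.79 without wild type quercetin pool 3. The median was -0.183 without wild type control pool 1, -0.158 without wild type quercetin pool 2, -0.152 without POR-null control pool 1 and -0.058 without wild type control pool 2.

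On control diet the POR-null pools stood above the wild type pools in 35 genes and below in 13, with a median of 0.05 against -0.01 over all genes. This comparison and that of quercetin in wild type mice share the wild type control pools, so their values are given side by side only. Col3a1 differed by 1.46 (1.64 after quercetin), Dcn by 1.15 (1.33), Dpt by 1.14 (1.33), Sparc by 1.04 (1.13), Postn by 0.96 (1.41) and Fn1 by 0.92 (1.11). The 5 genes of smallest p were Col4a3 (-0.29, SE 0.10), Dpt (SE 0.39), Timp3 (0.45, SE 0.18), Col5a2 (0.54, SE 0.23) and Col4a2 (0.88, SE 0.39), with adjusted p from 0.71 to 0.734 by limma.

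Higher genes at an unadjusted p under 0.05 numbered 4, against 3.71% of all genes, and lower ones 2 (Col4a3 and Thbs1 at -0.26), against 2.75%. The groups did not overlap in 0 genes that were higher, against 4.83%, and in these 2 that were lower, against 4.47%. The counts at an unadjusted p are too small, and moved too much with single pools, to be set apart from the background. The counts without overlap do not exceed the background. The count of 6 was 15 without wild type control pool 1 and 15 without POR-null control pool 3. It was 3 without wild type control pool 2 or POR-null control pool 1, and 1 without wild type control pool 3 or POR-null control pool 2. The median was 0.112 without wild type control pool 1 and 0.115 without POR-null control pool 1. Without wild type control pool 3 Dpt differed by 0.753 and Col5a2 by 0.352. Array weights gave wild type control pool 1 a weight of 0.534 and pool 3 one of 2.49. With them 399 of all 22626 probe sets passed by limma. Among these were Dpt (1.87, adjusted p = 0.0311 by limma), Col5a2 (0.87, adjusted p = 0.0390) and Sparc (1.80, adjusted p = 0.0420). With equal weights their adjusted p were 0.71, 0.734 and 0.741, and without wild type control pool 1 they did not pass either.

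On the quercetin diet POR-null pools were higher in 13 genes and lower in 34, with a median of -0.07 against 0.00 over all genes, and no difference exceeded 0.47 in size. Dcn was at -0.47 (SE 0.54), Sparc at -0.46 (SE 0.50), Fn1 at -0.46 (SE 0.46), Postn at -0.45 (SE 0.46) and Col3a1 at -0.44 (SE 0.83). The 5 genes of smallest p were Col11a1 (0.26, SE 0.13), Col26a1 (-0.16, SE 0.09), Timp3 (-0.33, SE 0.18), Col17a1 (-0.12, SE 0.09) and Col14a1 (0.10, SE 0.08), each with an adjusted p of 0.998 by limma. At an unadjusted p under 0.05 there were 0 genes higher, against 0.944%, and 0 lower, against 1.33%. Groups did not overlap in 1 higher gene (Col11a1), against 3.01%, and in 2 lower ones (Col9a1 and Col2a1), against 3.68%. The number higher was 23 without wild type quercetin pool 3 and 22 without POR-null quercetin pool 2. The median was -0.007 without wild type quercetin pool 3, -0.025 without POR-null quercetin pool 2 and -0.113 without wild type quercetin pool 2. Without wild type quercetin pool 3 Timp3 differed by -0.203 and Col26a1 by -0.097. Timp3 was at -0.192 without POR-null quercetin pool 2, Col17a1 at -0.072 without POR-null quercetin pool 3 and Col11a1 at 0.168 without wild type quercetin pool 2.

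Further probe sets existed for 27 of the 49 genes and did not always give the same size of difference. After quercetin in wild type mice 31 of the 37 other probe sets had the sign of the one used. Of the 12 genes at an unadjusted p under 0.05, 7 had other probe sets, and all 13 of these were higher, 5 of them at an unadjusted p under 0.05. Col4a1 differed by 0.27 in the probe set used and by 1.64 in the other, which had a mean signal of 6.86 against 7.40. Sparc differed by 1.13 and 2.00, Fn1 by 1.11 and 0.34, Col3a1 by 1.64 and 0.48, Col1a1 by 0.18 and 0.72, and Col5a2 by 0.62 and 0.16. The Timp3 probe set used gave 0.71, and the other 3 gave 0.30, 0.25 and 0.06. For Timp2 the value used was 0.24, and the others ran from 0.09 to 0.60. The 2 probe sets of Col1a2 (0.76 and 0.61) and the 3 of Bgn (0.78, 0.83 and 0.59) were closer. Between genotypes on control diet 29 of the 37 other probe sets had the sign of the one used. Of the 6 genes at an unadjusted p under 0.05, 3 had other probe sets, and 3 of these 5 had the same sign. Col5a2 differed by 0.54 and -0.09, and Timp3 by 0.45 against -0.12, 0.10 and 0.13. The Timp3 interaction was -0.78 in the probe set used and -0.02, -0.13 and -0.29 in the others.

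**Figure D4:**
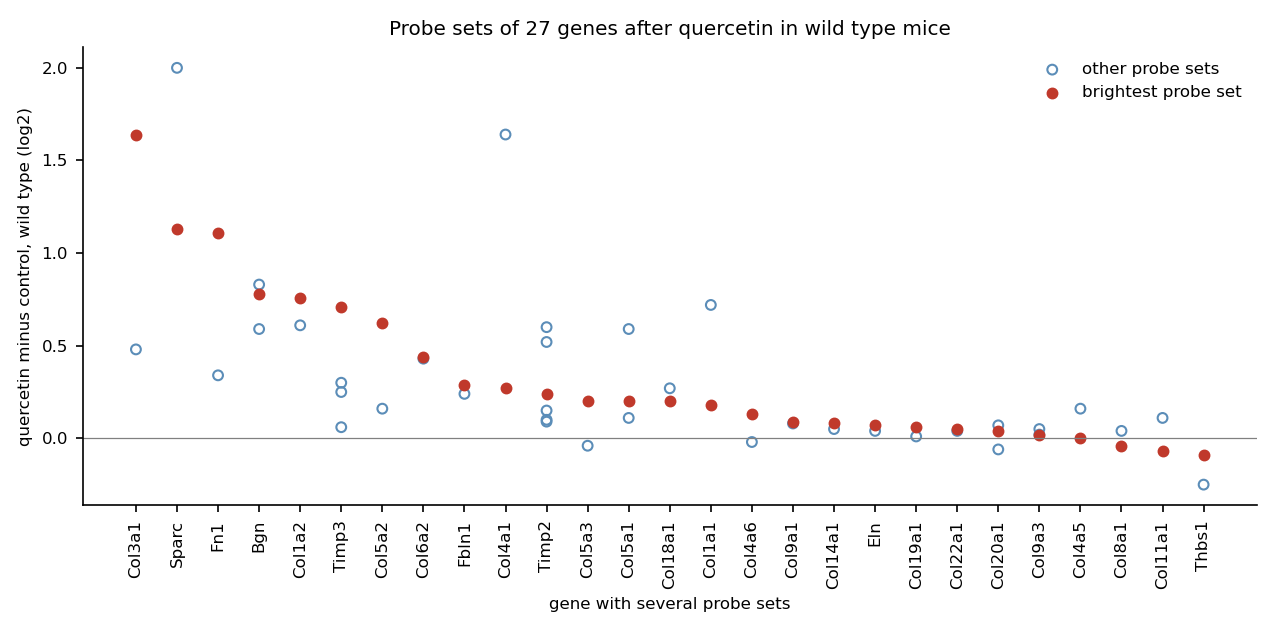
Difference between quercetin and control diet in wild type mice (log2, vertical) for every probe set of the 27 genes with several; filled points are the brightest probe set, open points the others. Sparc and Col4a1 reach 2.00 and 1.64 in an open point, and Col3a1 has 1.64 against 0.48.

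Smooth muscle markers differed between the same groups, though not always with the matrix genes. Of 14 smooth muscle genes 13 were higher after quercetin in wild type mice, with a median of 1.64. The smallest p were those of Myl9 (2.76), Tagln (2.60) and Actg2 (2.97), components of the contractile apparatus. At an unadjusted p under 0.05 10 of the 14 were higher, against 3.21% of all genes. The groups did not overlap in 8 higher genes, against 5.64%, and in 1 lower gene, against 3.64%. In POR-null mice, where 25 matrix genes were higher and 24 lower, all 14 were higher after quercetin, with a median of 0.18. Of them 0 were at an unadjusted p under 0.05, against 1.08% of all genes. Between genotypes 13 of the 14 were higher in POR-null pools on control diet (median 1.04) and 13 lower on quercetin diet (median -0.42). Their summed linear signal ran from 1296 to 1397 in wild type control, from 1448 to 14739 in wild type quercetin, from 1376 to 4115 in POR-null control and from 2822 to 3795 in POR-null quercetin pools. None of the 14 was below the lower quartile on all arrays. Matrix and muscle signal parted in single pools. Wild type control pool 1 and wild type quercetin pool 1 had matrix means of 6.19 and 6.20, in the upper part of the arrays (5.66 to 6.45), with smooth muscle means of 6.20 and 6.32, in the lower part (6.02 to 9.23). The part of smooth muscle in the differences was not tested.

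The 30 further fibroblast genes were set beside the matrix genes by array means, without a measure of likeness. Their mean per array was 5.47, 5.17 and 5.08 in wild type control, 5.46, 5.39 and 5.72 in wild type quercetin, 5.54, 5.44 and 5.31 in POR-null control and 5.48, 5.27 and 5.55 in POR-null quercetin pools. The matrix means were 6.19, 5.79 and 5.66, then 6.20, 6.04 and 6.45, then 6.27, 6.21 and 5.93, then 6.18, 5.96 and 6.24. Both were lowest in wild type control pools 2 and 3 and highest in wild type quercetin pool 3, as was the smooth muscle mean (6.05, 6.02 and 9.23). Of the 30 fibroblast genes 9 had a mean signal at or above the median of all values. Below the lower quartile on all 12 arrays lay 4 of them, Efemp1, Foxf2, Gli1 and Wnt5a. After quercetin in wild type mice 22 of the 30 were higher (median 0.16), and 9 were higher at an unadjusted p under 0.05, against 3.21% of all genes. The smallest p were those of the small proteoglycan Ogn (1.35), tenascin C (Tnc, 1.18) and the C1 inhibitor Serping1 (1.16). In POR-null mice 17 of 30 were higher (median 0.04), 0 of them at an unadjusted p under 0.05, against 1.08%.

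**Figure D5:**
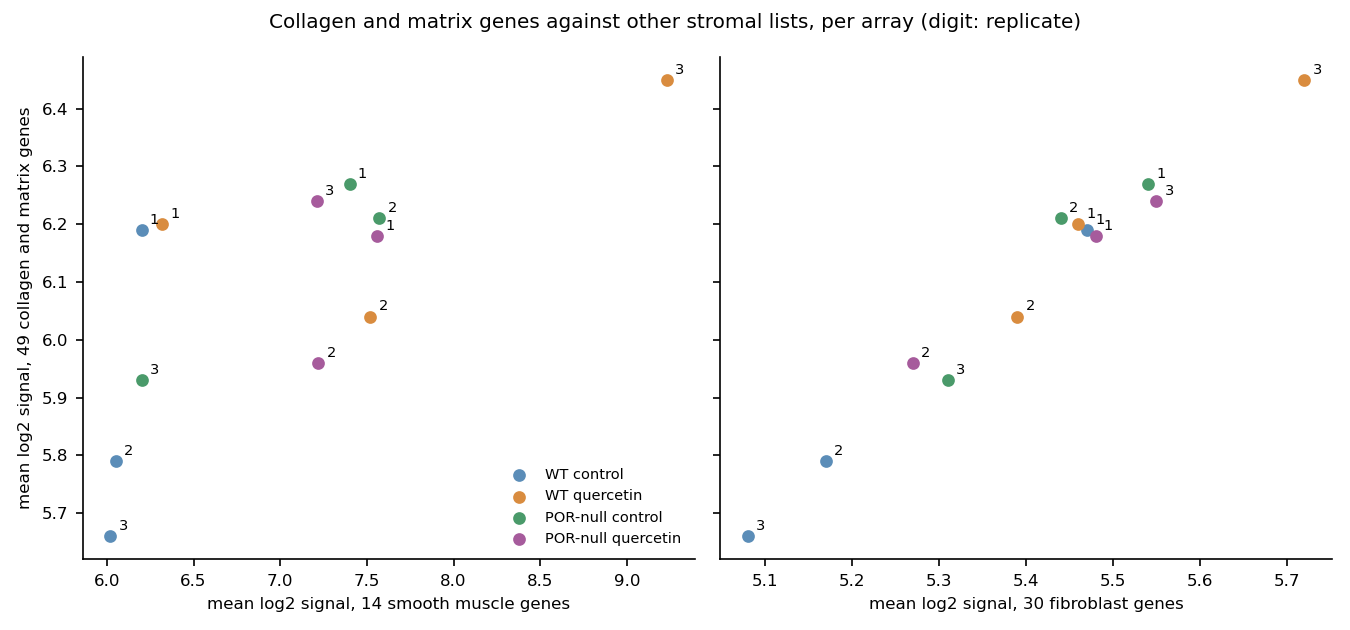
Mean log2 signal of the 49 collagen and matrix genes (vertical) against that of 14 smooth muscle genes (left) and 30 other fibroblast genes (right), 1 point per array, coloured by group with the pool number. Wild type control 1 and wild type quercetin 1 have matrix means of 6.19 and 6.20 at low smooth muscle signal.

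Blood, fat and pancreas markers also differed between pools. In wild type mice on quercetin all 8 B and plasma cell genes (median 0.97) and 8 of 10 macrophage genes (median 0.29) were higher. Of 5 adipocyte genes 3 were higher and 2 lower (median 0.02), from -0.13 to 1.93 (Fabp4), and 13 of 14 endothelial genes were higher (median 0.14). At an unadjusted p under 0.05, 3 B and plasma cell, 1 macrophage, 1 adipocyte and 0 endothelial genes were higher, against 3.21% of all genes. Below the lower quartile on all 12 arrays lay the endothelial genes Tek, Tie1, Emcn and Vwf, the macrophage genes Cd68 and Cd163, and Lep. Pancreatic acinar genes were lower in 10 of 11 (median -1.06), with array means of 9.05, 7.51 and 6.21 in wild type control and 9.97 in POR-null quercetin pool 2. Of the 10 epithelial genes 4 were higher (median -0.04). In summed linear signal the B and plasma cell list spanned 504 to 3302, 2053 to 2495, 1484 to 4494 and 830 to 4167 in the 4 groups, and the acinar list 1520 to 7383, 1635 to 2859, 1919 to 2344 and 2120 to 13472. The part of these cells in the matrix differences was not tested.

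Other genes of matrix biology were read from lists of known function. Of 23 genes for collagen folding, modification and crosslinking, 18 were higher after quercetin in wild type mice (median 0.06), 2 of them at an unadjusted p under 0.05 (3.21% of all genes): the lysyl oxidase Loxl1 (0.45) and the lysyl hydroxylase Plod2 (0.46). Serpinh1, the collagen chaperone HSP47, followed at 0.28 (SE 0.13). In POR-null mice 10 of the 23 were higher. At an unadjusted p under 0.05 1 was higher (1.08% of all genes) and 3 were lower (1.48%), with the prolyl hydroxylase gene P4ha1 at -0.32. Matrix proteases and their inhibitors had 12 of 25 higher in wild type mice (median -0.03) and 0 at an unadjusted p under 0.05. Matrix receptors had 10 of 21 higher (median 0.00), and laminins and their partners 10 of 15 (median 0.07, Lamc1 at 0.29). Of 20 TGF-beta genes 14 were higher (median 0.10, from -0.21 to 0.74), 4 of them at an unadjusted p under 0.05 (3.21% of all genes). The smallest p were those of the latent TGF-beta binding protein genes Ltbp1 (0.30) and Ltbp3 (0.46) and of Smad4 (0.37), the common transducer. Ltbp1 lay below the lower quartile on every array.

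On control diet the receptor genes Itgav (0.42) and Itgb4 (0.37), integrin subunits for fibronectin and for laminin, had the smallest p of the receptor list between genotypes. After quercetin in POR-null mice they were lower, at -0.33 and -0.25. These 2 comparisons share the POR-null control pools, and none of the genes of these lists passed the adjusted threshold.

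Among 7276 genes outside the set with signal at or above the median, those with the profile most like the mean of the 49 standardised profiles over the 12 arrays were Serpinh1 (r = 0.90), the focal adhesion protein gene Tgfb1i1 (0.881), the uridine phosphorylase Upp1 (0.867), the adhesion receptor Adgrl1 (0.858) and the caveolar protein Cav1 (0.854). Serpinh1 measured 6.93, 6.68 and 6.74 in wild type control, 6.87, 6.93 and 7.40 in wild type quercetin, 6.93, 6.96 and 6.89 in POR-null control and 7.06, 6.85 and 6.99 in POR-null quercetin pools. Its range was 0.72, against a median of 0.54 over the 49 genes and 4.19 for Col3a1. The ranges of Tgfb1i1, Upp1, Adgrl1 and Cav1 were 1.3, 1.9, 0.53 and 2.0. A Pearson correlation does not compare the size of the differences. All of these values come from the same arrays, which share the tissue makeup of each pool.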

How the data were processed

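RNA of 12 pools was hybridised to Affymetrix 430A arrays. The authors deposited 1 table of signal on a log scale, taken here as log2. Per the submitters' processing notes MAS5 and RMA were used, without their roles, so how background and normalization shaped low signals is not known. Values were used as deposited. Of 22690 probe sets, 64 controls were left out. One linear model with a mean for each of the 4 groups was fitted to all probe sets by limma 3.58.1 under R 4.3.3 (lmFit, eBayes with trend, 8 residual degrees of freedom, two-sided). Contrasts were adjusted by Benjamini and Hochberg over 22626 probe sets at 0.05. On simulated data with independent noise for each probe set, the fit called 86 of 100 changes of 1 log2 unit and 95 of 100 of 2. It made 9 false calls. Genes varied together in the pools here, so these rates do not carry over to them. The number of arrays limits the precision. Members and gene lists were chosen with earlier results of these data known. Values per pool are given for the 12 members of highest mean and the 5 of smallest p in each comparison, and for Col3a1. Tables and figures used Python 3.11.15 and matplotlib 3.10.9.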

Additional observations from a re-analysis of the deposited data

How the results depend on the processing

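Alternatives were another moderation of the variance, quantile normalization, median centring, a filter on low signal, array weights, a replicate block, the compared groups alone, each array left out, and the mean of all probe sets of a gene, which gives values without a test. The 5 differences of smallest p in each comparison (25 in all) kept their direction under each alternative run, as did the member median in wild type after quercetin (0.095 to 0.16 with 1 array left out). The member median of POR-null mice after quercetin, 0.003, took the other sign under some, from -0.041 with array weights to 0.072 with 1 array left out. The comparison of groups alone was not run for the interaction, which uses all groups. Members called stayed 0 with each array left out in each comparison; with array weights there were 3 for genotype on control diet, where 399 probe sets passed, and 2 probe sets passed for quercetin in wild type. Correlations of the deviations of pools with the same replicate number ran from -0.192 to 0.26 (median 0.041, 6 of 18 over 0.1). With different numbers they ran from -0.267 to 0.209 (median -0.021, 9 of 36 over 0.1). Between wild type and POR-null control pools, same numbers gave 0.193, 0.106 and 0.26, and different numbers -0.264 to -0.011. Between the quercetin pools, same numbers gave -0.115, 0.24 and 0.039. Whether pools of one number shared more than the number is not known. In genotype on quercetin diet 1 probe set passed with the replicate block and 1 with the compared groups alone; the block changed no other call at the adjusted threshold, and members at an unadjusted p under 0.05 became 5 for the interaction. With 1 array left out, probe sets called ran from 0 to 3 for quercetin in wild type, from 0 to 1 for quercetin in POR-null, from 0 to 41 for genotype on control diet (41 without wild type control pool 1), from 0 to 1 for genotype on quercetin diet and from 0 to 1 for the interaction. With 1 array left out, members higher ran from 32 to 43 for quercetin in wild type and from 19 to 33 for quercetin in POR-null. They ran from 27 to 38 for genotype on control diet, from 13 to 23 for genotype on quercetin diet and from 10 to 18 for the interaction. The low signal filter kept 30 members, of which 15 were higher for quercetin in POR-null, 6 for genotype on quercetin diet and 6 for the interaction. The member median kept its sign but ran from 0.033 to 0.115 for genotype on control diet, from -0.113 to -0.007 for genotype on quercetin diet and from -0.183 to -0.058 for the interaction with 1 array left out. Counts at an unadjusted p were added after seeing the data. Depth is not defined for arrays; members below the lower quartile are limited by background.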
